A study of Mus musculus with 2 samples.

Results

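The cells described here were chosen by markers of the surface epithelium of the eye, the stratified sheet that covers the cornea and the conjunctiva. They were captured by single-cell RNA-seq of embryonic mouse eyes. A barcode was taken as such a cell when it had more than 500 detected genes and under 15% mitochondrial transcripts, at least 3 of the 6 genes Krt5, Krt14, Krt15, Krt7, Klf5 and Trp63, and at least 0.1% of its unique transcripts (UMIs) in those 6 genes summed. Of 36146 cells that passed the first pair of limits, 146 met the marker rule (0.404%). They are called surface cells below by the rule alone, since genes outside it bore out the name for 67 of them. The 6 genes chose the cells, so their levels are a description and were given no test.

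The eyes came from E17.5 embryos homozygous for 1 of 2 humanized Myrf alleles, made with CRISPR/Cas9 in C57BL/6J eggs. In Myrf humWT/humWT the last coding exon of mouse Myrf was replaced by the human sequence. The study's methods name the human 3′UTR as part of it, whereas its results speak of the endogenous 3′UTR. Myrf humdG/humdG carries the same human replacement with a frameshift at the C-terminus, which models a splice-site variant found in a family with nanophthalmos. Myrf codes for a membrane-bound transcription factor, and both alleles are germline changes present in every cell. There was no unmodified mouse group. Each genotype was 1 library of pooled eyes (3 eye cups per the labels, 6 eyes of 3 mice per the study's methods) with both sexes mixed, so no difference between genotypes could be tested against the spread between animals. The labels say that cornea, lens and optic nerve were taken off, whereas the study's methods say that the cornea was left in place. The number of surface cells in a library therefore also depends on dissection, and fewer cells of a type and poorer capture of them cannot be told apart.

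The surface ectoderm of the eye forms the corneal and the conjunctival epithelium, and at this age the eyelids are fused over both. Basal cells of such a sheet make keratins 5, 14 and 15 and the transcription factor p63 (Trp63), and are fixed to the basement membrane by hemidesmosomes. Corneal cells make keratin 12 under the control of Pax6, while conjunctival and superficial cells make keratins 4, 13, 8 and 19 and membrane mucins. Desmosomes, built from desmoplakin (Dsp), Perp and the desmosomal cadherins, join neighbouring cells in all of these layers.

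Krt5 and Krt12 are the keratins on which the identity of the cells turns, the first for a stratified epithelium and the second for the cornea. Their promoters, the 250 bases before the gene's start in RefSeq on GRCm38.p6, are shown 5′ to 3′ in the direction of transcription, with the motifs TATAAA (given strand) and CCACCC (either strand) in capitals. The first is the core of a TATA box and the second is a motif of the Krüppel-like factor family, to which Klf5 belongs. The Krt5 window lies at chr15:101712906-101713155 on the minus strand and holds neither motif.
Krt5: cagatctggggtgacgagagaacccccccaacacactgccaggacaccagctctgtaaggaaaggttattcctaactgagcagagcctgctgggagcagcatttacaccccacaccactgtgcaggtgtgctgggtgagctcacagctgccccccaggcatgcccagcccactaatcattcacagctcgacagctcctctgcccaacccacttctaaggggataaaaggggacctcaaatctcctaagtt
The Krt12 window lies at chr11:99422260-99422509, also on the minus strand, with TATAAA 29 bases before the start and CCACCC beginning 216 and 95 bases before it, the nearer one on the opposite strand.
Krt12: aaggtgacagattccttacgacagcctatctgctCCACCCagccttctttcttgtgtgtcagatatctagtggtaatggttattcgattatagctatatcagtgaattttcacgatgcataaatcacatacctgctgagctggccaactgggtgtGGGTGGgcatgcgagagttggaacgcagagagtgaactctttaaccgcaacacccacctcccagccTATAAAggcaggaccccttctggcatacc
TATAAA stood in 2494 of 32851 mouse promoters of this length (7.59%) and CCACCC in 9223 (28.1%). A match says only that the letters are there.

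In the Myrf humWT/humWT library 92 of 17017 kept cells were surface epithelium by the rule, a share of 0.541% (exact 95% binomial interval 0.436% to 0.663%). In the Myrf humdG/humdG library 54 of 19129 were, a share of 0.282% (0.212% to 0.368%). The share was 0.522 times as high in humdG/humdG (0.366 to 0.739), and the intervals of the 2 libraries did not overlap. All intervals given here cover counting error only, with 1 library per genotype and UMIs of the same cell not independent of each other. The cells held 1371920 UMIs in humWT/humWT and 638474 in humdG/humdG, out of 129135207 and 114319529 in the libraries. Their median depth was 10098.5 UMIs (1045 to 124309) and 3298 UMIs (1518 to 91463), against 3779 and 2573 in all other kept cells. When every kept cell was thinned to 2000 UMIs, with 1731 and 7371 shallower cells left out, 60 of 15286 (0.393%) and 28 of 11758 (0.238%) met the rule, a ratio of 0.607 (0.373 to 0.965). Before thinning, the same cells gave 0.556% and 0.357%. The thinning was chosen after the data were seen.

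The label was checked against genes that the rule did not use, and it held for 67 of the 146 cells. These were the cells with at least 0.5% of their UMIs in the 6 genes, 43 in humWT/humWT and 24 in humdG/humdG, a limit set after the data were seen. They had median depths of 19716 and 17758 UMIs and held 76.2% and 87.0% of the selected cells' UMIs. They made up 0.253% (0.183% to 0.340%) and 0.125% (0.080% to 0.187%) of kept cells, with intervals that overlapped slightly. The ratio of these shares was 0.497 (0.288 to 0.837). With cells thinned to 2000 UMIs, 39 and 18 met this limit, a ratio of 0.600 with an interval that included equal shares (0.323 to 1.07). Perp was detected in 41 of the 43 (95.3%) and all 24, and Dsp in 42 and 24. The 11 desmosome genes summed to 3394 counts per 1000000 UMIs (CPM) in humWT/humWT and 3542 in humdG/humdG, against 54.4 and 48.6 in all other cells. Epcam, an epithelial adhesion molecule, was detected in 38 (88.4%) and 20 (83.3%) of the cells, and E-cadherin (Cdh1) in 37 (86.0%) and 16 (66.7%).

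The other 79 cells, 49 and 30 with a marker share from 0.1% to under 0.5%, gave a mixed answer. They were shallower, with medians of 4785 and 2186.5 UMIs. Perp was detected in 16 of the 49 (32.7%) and in 1 of the 30 (3.33%), against 1.97% and 0.706% of red blood cells. Dsp was detected in 23 (46.9%) and 4 (13.3%), against 3.58% and 4.00%, and Epcam in 9 (18.4%) and 0. The desmosome list stood at 823 and 314 CPM, above all other cells and below the cells from 0.5%. The hemidesmosome and basement membrane list stood at 1974 and 749 CPM, against 391 and 317 in all other cells and 2095 and 1992 in the cells from 0.5%. RNA of other cell types was higher in these cells. The adult globins summed to 4407 CPM in humWT/humWT and 15086 CPM in humdG/humdG in these cells, against 1580 and 956 in the cells from 0.5%. In humdG/humdG the 25 cells under 0.2% stood at 8151 CPM and the 5 from 0.2% at 63977, where 1 cell held 86 Hba-a1 UMIs. A list of 6 mesenchyme genes, led by Col1a1 and Col1a2, stood at 4689 and 2404 CPM against 1399 and 533. Exactly 3 UMIs of the rule's genes, the fewest it allows, were found in 10 and 16 of all selected cells. At the limit, the humWT/humWT cell just inside had 3 such UMIs of 2988 (0.1004%) and the cell just outside 3 of 3007 (0.0998%), while in humdG/humdG they had 3 of 3000 and 3 of 3170 (0.0946%). None of these 4 had a Cdh1 UMI. Values below are given for all selected cells and, where it matters, for the cells from 0.5% alone, since the levels of the sum rest mainly on these.

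**Figure D1:**
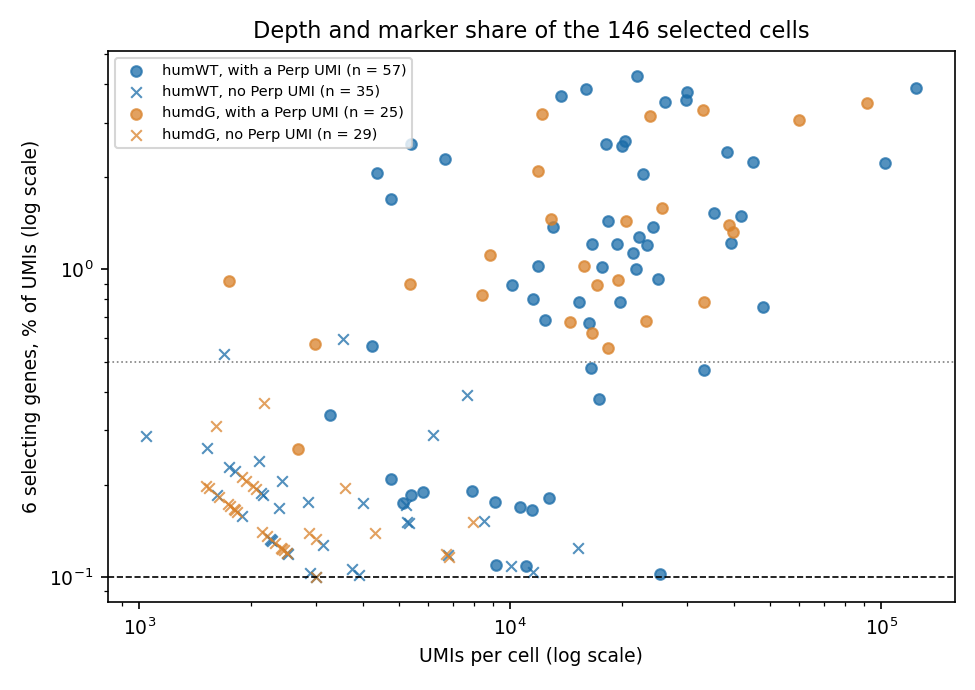
Each point is 1 selected cell, placed by its UMIs (x axis, log scale) and the percent of them in the 6 selecting genes (y axis, log scale), with a filled point where Perp was detected and a cross where it was not. Above the dotted line at 0.5% nearly every cell had a Perp UMI (41 of 43 and 24 of 24), while below it 16 of 49 and 1 of 30 did.

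Some selected cells may hold more than 1 cell, and 4 in each library also met the marker rule of another set, mesenchyme in 4 and 1, and RPE, red blood cells and retinal progenitors in 0 and 1 each. The libraries shared 102 barcode sequences, 1 of them a selected cell in humWT/humWT and none a selected cell in humdG/humdG. A few deep cells weighed on the sums, the deepest holding 9.06% of the UMIs in humWT/humWT and 14.3% in humdG/humdG, and the 5 deepest 26.4% and 41.2%. An Xist UMI without one of 4 Y-linked genes was found in 20 and 15 cells, the reverse in 31 and 16, and both in 17 and 7.

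Among the rule's genes Krt15, a keratin of basal and limbal cells, stood at 11934 CPM (11752 to 12118) in humWT/humWT and 12182 CPM (11913 to 12456) in humdG/humdG. Krt5, the basal partner keratin, stood at 3198 CPM (3104 to 3294) and 3555 CPM (3411 to 3705). Krt14, the type I partner of Krt5, stood at 659 CPM (617 to 703) and 667 CPM (605 to 734). In the cells from 0.5% Krt5 was at 4064 and 4017 CPM. Red blood cells, chosen by globins from 10% of their UMIs and expected to lack keratins, served as a guide to free RNA. They held Krt15 at 42.5 and 71.8 CPM and Krt5 at 18.9 and 17.4. They are no pure measure of free RNA, since Mki67 was detected in 31.5% and 34.4% of them. For some genes, such as Lgals1 in humdG/humdG, the selected cells also lay below them. Krt7, a keratin of simple and glandular epithelia, was at 292 and 396 CPM. Klf5, a zinc-finger factor of epithelia, was at 305 and 310 CPM, and Trp63 at 235 (210 to 263) and 190 (157 to 226). The genes sit on mouse chromosomes 15 and 11 in the keratin clusters, with Krt5 at chr15:101707070-101712898, Krt14 at chr11:100203162-100207548 and Krt15 at chr11:100131758-100135928, all on the minus strand (GRCm38). Klf5 is at chr14:99298691-99315036 and Trp63 at chr16:25683763-25892102, both on the plus strand.

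Krt12, the keratin that marks the cornea (chr11:99415666-99422259, minus strand), summed to 1246 CPM (1187 to 1306) in humWT/humWT and 1220 CPM (1136 to 1309) in humdG/humdG, with overlapping intervals. All other cells held 6.44 and 9.83 CPM and red blood cells 6.78 and 9.25. Krt12 was concentrated in few cells, since a UMI was found in 18 of 92 and 9 of 54, and 5 or more UMIs in 11 and 4. A single humWT/humWT cell held 575 Krt12 UMIs, and a single humdG/humdG cell 303. Without the deepest cell of each library Krt12 stood at 1369 CPM (1305 to 1436) and 870 CPM (794 to 952), a log2 ratio of -0.65 in place of -0.03. When cells were thinned to 1000 UMIs, 12 of 92 (13.0%) and 5 of 54 (9.26%) had a Krt12 UMI, against 0.72% and 0.47% of red blood cells, whose median depths were 4227 and 3436 UMIs. Pax6, the transcription factor that directs corneal identity (chr2:105668900-105697364, plus strand), was at 512 CPM (475 to 551) and 509 CPM (455 to 567). Outside the surface cells Pax6 stood at 115 and 293 CPM, and in red blood cells at 48.5 and 121. Of the other corneal genes, transketolase (Tkt) was at 173 and 188 CPM and the uroplakin Upk1b at 262 and 226, or at 160 and 115 without the deepest cells. Aldh3a1, the corneal aldehyde dehydrogenase that is abundant in adults, had 8 UMIs from 1 cell in humWT/humWT and 1 UMI in humdG/humdG.

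Of the 8 conjunctival genes 5 were measured, of which 3 lay within 2-fold, 1 (Krt13) was higher and 1 (Krt4) lower in humdG/humdG. Over all 3541 genes with at least 100 UMIs, 0.424% were past 2-fold higher, 2.43% past 2-fold lower and 97.1% within 2-fold, and the counts of list genes below stand against these shares. Krt19 (chr11:100140810-100148665, minus strand) was at 1703 CPM (1635 to 1774) and 1795 CPM (1692 to 1902). Krt6a, a keratin of suprabasal and stressed epithelia, was at 956 and 1054 CPM, or at 632 and 760 without the deepest cells. Krt13 (chr11:100117327-100121566, minus strand) was at 96.9 CPM (81.2 to 115) in humWT/humWT and 473 CPM (421 to 529) in humdG/humdG. Of the humdG/humdG Krt13 UMIs 93.7% lay in the deepest cell of that library, and without the deepest cell of each library the log2 ratio turned from 2.29 to -1.12. Krt4 (chr15:101918535-101924735, minus strand), the partner of Krt13, was at 129 CPM (111 to 149) and 48.6 CPM (33.0 to 68.9), with 57.1% and 51.6% of it in 1 cell. In humWT/humWT the cell with the most Krt13 held 31.6% of it. The membrane mucin Muc4 was at 97.7 and 75.2 CPM, and Muc5ac, the goblet cell mucin, had no UMI in either library, which allows up to 2.19 CPM in humWT/humWT and 4.70 CPM in humdG/humdG. Of the epidermal genes, Krt1 was at 16.0 and 21.9 CPM, Krt10 at 35.0 and 61.1, and loricrin (Lor), the late envelope protein, had 3 UMIs and 0. The whole list of 8 epidermal genes summed to 996 and 1306 CPM, against 63.7 and 72.8 in all other cells. Calml3 led it at 418 and 553 CPM. Its 3 measured genes, Krtdap, Calml3 and Lgals7, lay within 2-fold.

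Cell by cell, the 67 cells from 0.5% shared Krt15 and Krt5 and divided over the other keratins. With 5 UMIs as the limit, Krt15 was present in all 67 and Krt5 in 62. Krt14 was present in 25 (16 and 9), Krt19 in 31 (24 and 7), Krt8 in 19, Krt12 in 12 (8 and 4), Krt13 in 6 and Krt10 in 4. Krt14 and Krt19 were present together in 4 cells, whereas 17 cells had Krt14 without Krt19 or Krt12 and 21 had Krt19 without the other pair. Krt12 went with Krt19 in 6 cells, with Krt14 in 4, and with neither in 2. None of the 3 was present in 13 cells. The median Krt14 level of a cell was 24.1 CPM in humWT/humWT and 125 in humdG/humdG, and that of Krt19 was 430 and 91.1, while Pax6 was at 499 and 567.

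**Figure D2:**
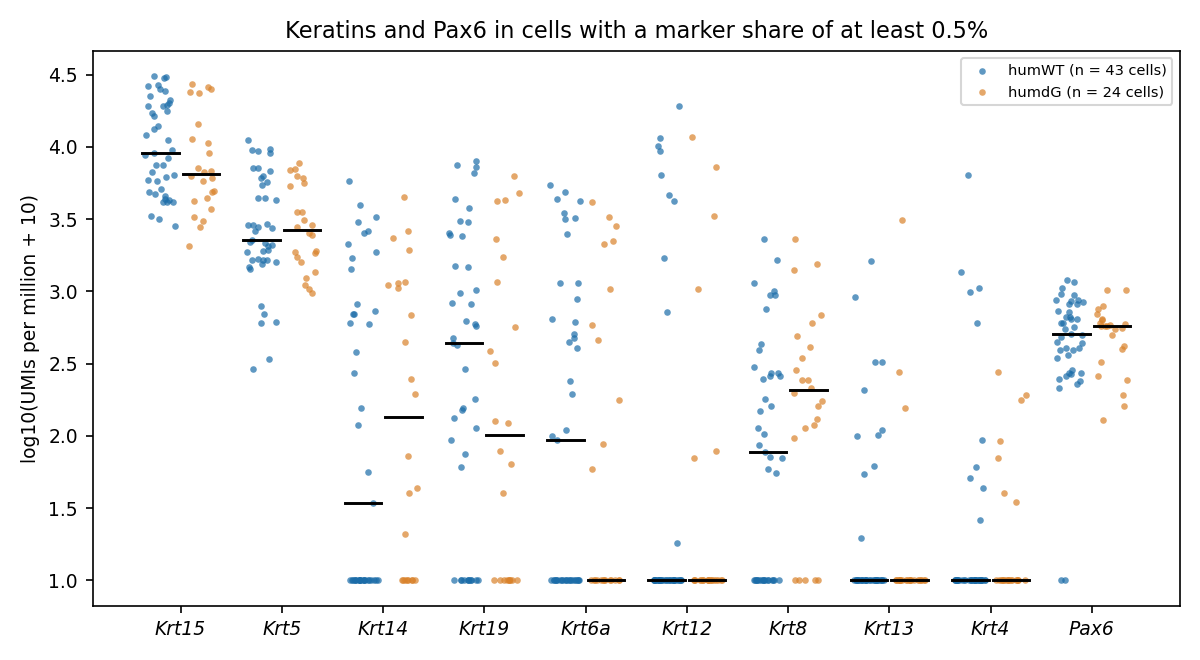
Each point is 1 of the 67 cells with a marker share of at least 0.5%, by gene (x axis) and by log10 of CPM plus 10 (y axis), with humWT/humWT left and humdG/humdG right and a bar at the median. Krt15, Krt5 and Pax6 were detected in nearly all cells, while Krt14, Krt19, Krt6a, Krt12, Krt13 and Krt4 split the cells into those at 0 (drawn at 1.0) and those with high levels.

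Adhesion genes were measured next. Perp, a p63 target in desmosomes, was at 703 CPM (659 to 748) in humWT/humWT and 888 CPM (816 to 964) in humdG/humdG, and Dsp at 633 (591 to 676) and 855 (785 to 930). The log2 ratios were 0.34 and 0.43, with intervals apart. For Perp 39.7% of the humdG/humdG UMIs lay in 1 cell, and without the deepest cell of each library it stood at 636 and 625 CPM. Dsp stood at 609 and 779 CPM without these cells, still with intervals apart (567 to 654 and 707 to 856). The desmosomal cadherins went both ways, with Dsc2 at 401 and 440 CPM and Dsg2 at 144 and 168, and with Dsg3 at 114 and 87.7, Dsc3 at 133 and 108 and Dsg1a at 158 and 121. All 10 measured desmosome genes of 11 lay within 2-fold, but without the deepest cells Dsg3 was at 100.2 and 49.4 CPM (log2 -1.02) and Dsg1a at 140.3 and 71.3 (-0.98). Sfn, the 14-3-3 sigma of stratified epithelia, was at 743 and 896 CPM.

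The anchoring apparatus towards the basement membrane was measured as well. Col17a1, the collagen of hemidesmosomes, was at 314 CPM (285 to 345) and 282 CPM (242 to 326), and Col7a1, the anchoring fibril collagen, at 72.2 and 78.3, both with overlap. Itgb4, the integrin of hemidesmosomes, was at 122 (104 to 142) and 81.4 (60.8 to 107), also with a small overlap. Fras1, a protein of the embryonic basement membrane, was at 399 CPM (366 to 434) and 241 CPM (205 to 282), a log2 ratio of -0.73, and in all other cells its ratio was -0.65. Col4a6, a basement membrane collagen chain, was at 95.5 (79.8 to 113) and 47.0 (31.7 to 67.1), a log2 ratio of -1.02, and -0.93 in the cells from 0.5%. These 2 had intervals apart in the 2 libraries, in the same direction.

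Among the epithelial transcription factors Grhl2, a regulator of epithelial junctions, was at 114 CPM in both libraries, Elf3 at 110 in both, Otx1 at 63.4 and 61.1, and Esrp1, the epithelial splicing factor, at 132 and 139. Ehf was at 159 and 211 CPM. All 13 measured genes of the list of 19 lay within 2-fold, with a median log2 ratio of -0.01. Without the deepest cells Klf4, a factor of differentiating epithelia, was past it, at 59.3 and 23.8 CPM (log2 -1.32). Among barrier genes the calcium-binding S100a6 was at 5223 and 5209 CPM, and at 3354 and 3000 without the deepest cells. Annexin A1 (Anxa1) was at 472 and 473 CPM, and Aqp3, the water and glycerol channel of stratified epithelia, at 263 (237 to 292) and 439 (389 to 493). For Aqp3 40.0% of the humdG/humdG UMIs lay in 1 cell, and without the deepest cell of each library it stood at 252 (225 to 281) and 307 (262 to 357), with intervals that overlapped.

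Several signalling genes were measured in the surface cells, with no level in other cells given here. Wnt4 was at 429 and 453 CPM, Wnt6 at 225 and 296, Wnt10a at 114 and 116, and Wnt7b at 62.7 and 39.2. Notch3 was at 148 and 144 CPM, its ligands Jag1 at 112 and 119 and Jag2 at 77.3 and 56.4, and the target Hes1 at 258 and 337. The growth factor receptors Egfr and Fgfr2 stood at 369 and 338 and at 313 and 238 CPM. All measured genes of these 3 lists, 6 of 16 Wnt, 6 of 10 Notch and 7 of 14 growth factor genes, lay within 2-fold between the libraries, but without the deepest cells Wnt7b was at 57.7 and 23.8 CPM (log2 -1.28, -2.26 to -0.42). The retinoic acid carrier Crabp2 was at 92.6 and 105 CPM.

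Of 14 cell cycle genes 7 were measured, of which 1 (Mki67) was past 2-fold lower, against 2.43% of all measured genes, and 6 lay within 2-fold, with a median log2 ratio of 0.15. Cdkn1c, the p57 inhibitor of cyclin-dependent kinases, was at 1394 CPM (1333 to 1458) in humWT/humWT and 2276 CPM (2160 to 2396) in humdG/humdG, a log2 ratio of 0.71, against -0.61 in all other cells. Without the deepest cells it was at 967 and 1623 CPM, and among the cells from 0.5% 3 cells held 919 of 1805 and 1131 of 1429 UMIs. Mki67, a marker of cycling cells, was at 69.2 (56.0 to 84.6) and 34.5 (21.6 to 52.2), and Top2a, the topoisomerase of dividing cells, at 119 (101 to 139) and 75.2 (55.4 to 99.7). Without the deepest cells the log2 ratio of Mki67 was -0.92, within 2-fold. In the cells from 0.5% Top2a was at 103 and 28.8 CPM (log2 -1.84, -2.70 to -1.08) and Mki67 at 52.6 and 16.2 (-1.70, -2.90 to -0.67). In humWT/humWT 3 of these cells held 91 of the 108 Top2a UMIs and 3 held 46 of the 55 Mki67 UMIs. Counted by cells the order depended on the gene and the depth. In the cells from 0.5% Mki67 was detected in 10 of 43 (23.3%) and 9 of 24 (37.5%). Thinned to 1000 UMIs, Mki67 was detected in 10 of 92 (10.9%) and 3 of 54 (5.56%) of all selected cells. In the cells from 0.5% it was then detected in 4.65% and 4.17%. Top2a was detected in 40.2% and 53.7% of all selected cells, and in 9.78% and 20.4% when they were thinned to 1000 UMIs. Red blood cells gave 34.2% and 43.1% unthinned and 11.3% and 16.2% thinned. Red blood cells held 108 and 171 CPM of Top2a and 86.7 and 108 of Mki67, so the levels in the surface cells from 0.5% were below those of red blood cells in both libraries except for Top2a in humWT/humWT, which was near them. No share of cycling cells was read from them.

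Myrf itself had 6 UMIs in the surface cells of humWT/humWT (4.37 CPM) and none in humdG/humdG, where up to 4.70 CPM is allowed. Red blood cells held 7.49 and 4.90 CPM and all other cells 17.4 and 7.83, so Myrf in the selected cells was not above its level in either. Reads from the human exon and any human 3′UTR may not align to the mouse genome, and the count checks neither allele. Tmem98, which binds Myrf, had 20 and 9 UMIs.

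The levels in the surface cells were also set against those in all other cells. Of 2098 genes with at least 50 UMIs in the surface cells, 383 were at least 2-fold higher than in all other cells in both libraries and 149 at least 8-fold. Genes were ranked by the lower of the folds in the 2 libraries. By this measure Lrrc26, a channel subunit of secretory epithelia, led with 464-fold in humWT/humWT and 604-fold in humdG/humdG. Krt6a followed with 430-fold and 439-fold, and then Clic3 with 527-fold and 408-fold and the calcium-binding S100a14 with 429-fold and 387-fold. Krt19 was 318-fold and 292-fold higher, the tight junction claudin Cldn4 301-fold and 272-fold, and beta-defensin 1 (Defb1), an antimicrobial peptide, 317-fold and 355-fold. Mesothelin (Msln) was 228-fold and 361-fold higher, and the lipid raft protein Mal 194-fold and 438-fold. Gpha2, a glycoprotein hormone subunit made by limbal stem cells of the cornea, was at 628 and 724 CPM against 2.60 and 2.62 elsewhere. It was detected in 46 and 22 of the selected cells, with at most 11.4% and 20.1% of it in 1 cell. Its gene is at chr19:6226380-6227768 on the plus strand.

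**Figure D3:**
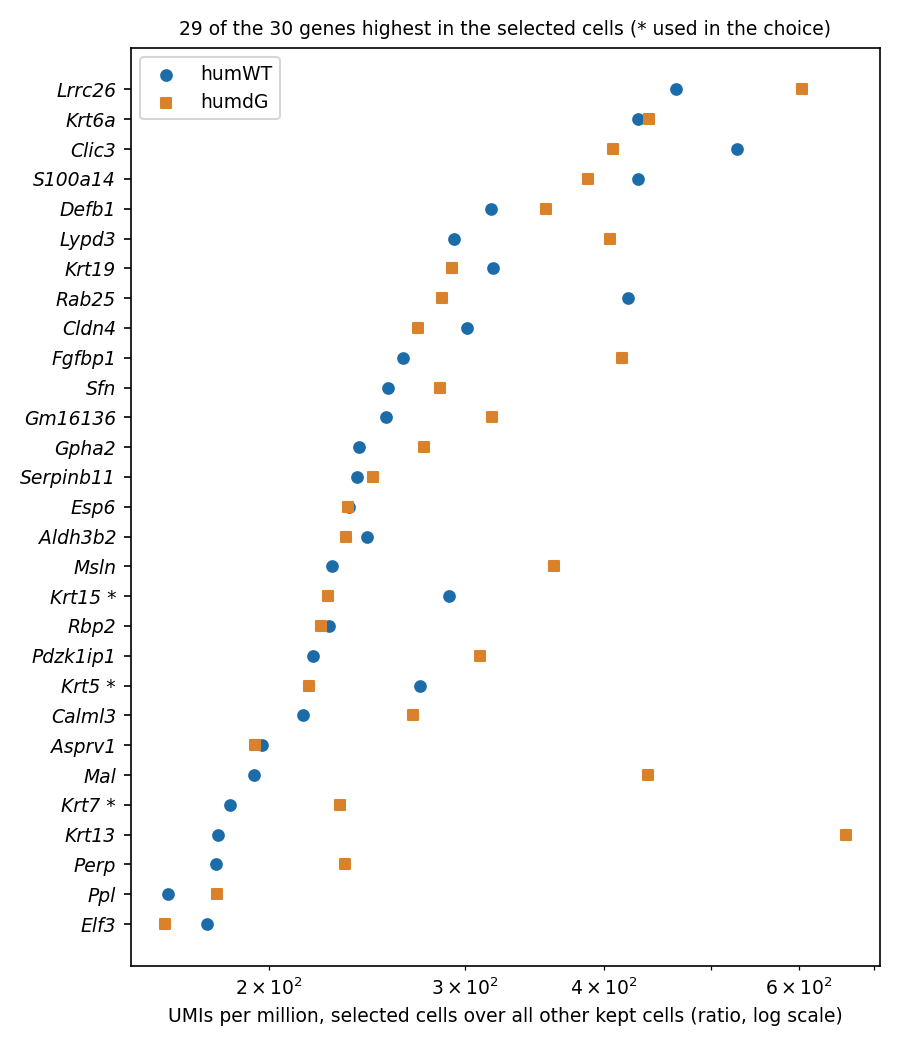
Points give, for 29 of the 30 genes with the highest ratio, the CPM of the selected cells over that of all other kept cells (x axis, log scale), circles for humWT/humWT and squares for humdG/humdG, with an asterisk at genes used to choose the cells. By the lower of both ratios Lrrc26 (464-fold and 604-fold) and Krt6a (430-fold and 439-fold) lead, above the rule's own keratins Krt15, Krt5 and Krt7, and Krt13 stands apart in humdG/humdG at 660-fold.

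The 146 cells fell into 5 groups by Leiden clustering over both libraries. They are given by number and leading genes and were not named as cell types. Group 3 (23 cells, 16 and 7, median 23852 UMIs) was led by Mal at 2209 CPM, Krt6a at 2474, Msln at 477 and Asprv1, with Krt13 and Krt19 of the conjunctival list among its top 10 genes. It held Krt19 at 4189 CPM, Krt12 at 2091, Upk1b at 582 and Muc4 at 228, and Krt14 at 9.01. Group 4 (35 cells, 21 and 14, median 16569 UMIs) was led by Dlk2, Wnt6, follistatin (Fst), the Notch ligand Jag2 and Igfbp2. Of these, Fst was detected in 37.1% of the group's cells and the others in 80.0% to 97.1%. Group 4 held Krt14 at 1543 CPM, Trp63 at 404, Col17a1 at 672, Wnt6 at 705, Wnt10a at 284 and Gpha2 at 1229, with Krt19 at 128 and Krt12 at 365. Krt14, Trp63 and Col17a1 were thus higher in group 4 and Krt19 and Krt6a in group 3. Krt15 and Krt5 of the basal list went with the latter, at 23486 and 5266 CPM in group 3 and 5125 and 1901 in group 4.

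Both patterns were present in each library. In group 3 Krt19 was at 4137 CPM in humWT/humWT and 4293 in humdG/humdG, and Krt14 at 5.83 and 15.3. In group 4 Krt14 was at 1401 and 1787 CPM, Wnt6 at 658 and 785 and Wnt10a at 282 and 288. Krt12 was uneven, at 526 and 88.7 CPM in group 4, at 2562 and 1164 in group 3 and at 756 and 5892 in group 1. These values rested on few cells. In humdG/humdG, cells with 302 and 149 UMIs made up nearly all of the 452 in group 1, and 1 cell held 303 of 305 in group 3. In humWT/humWT 1 cell held 167 of the 183 in group 1.

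The remaining groups were less clear. Group 1 (22 cells, 16 and 6, 13 of them from 0.5%) had Mgp, a matrix protein gene, and the division genes Ube2c, Ccnb2 and Birc5 among its leading genes. Ccnb2 was detected in 18.2% and Birc5 in 13.6% of its cells, and Krt12 stood at 1992 CPM from 6 cells. Within group 1 Mgp had 98 UMIs in humWT/humWT, 88 of them in 1 cell, and 0 in humdG/humdG. Mki67 stood there at 165 and 13.0 CPM and Top2a at 314 and 78.2. The humWT/humWT values rested on 2 cells, with 17 and 21 of the 40 Mki67 UMIs and 35 each of the 76 Top2a UMIs. Group 5 (15 cells, 13 and 2, none from 0.5%) was led by the neuronal genes Dcc at 1060 CPM and Nrxn3 at 1030 and by the non-coding RNA Meg3 at 1581. Of its 174 humWT/humWT Dcc UMIs 131 lay in 1 cell. Trp63 stood at 403 CPM in group 5, but it is a gene of the rule, so this level says nothing about the group's identity. Group 2 (51 cells, 26 and 25, 3 of them from 0.5%) had a median of 2281 UMIs, was led by globins, histone genes and the muscle genes Mylpf and Acta1, with Hbb-bs at 6619 CPM, and held 24 of the 26 cells with exactly 3 UMIs of the rule's genes. The sizes of the groups were not compared between genotypes.

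**Figure D4:**
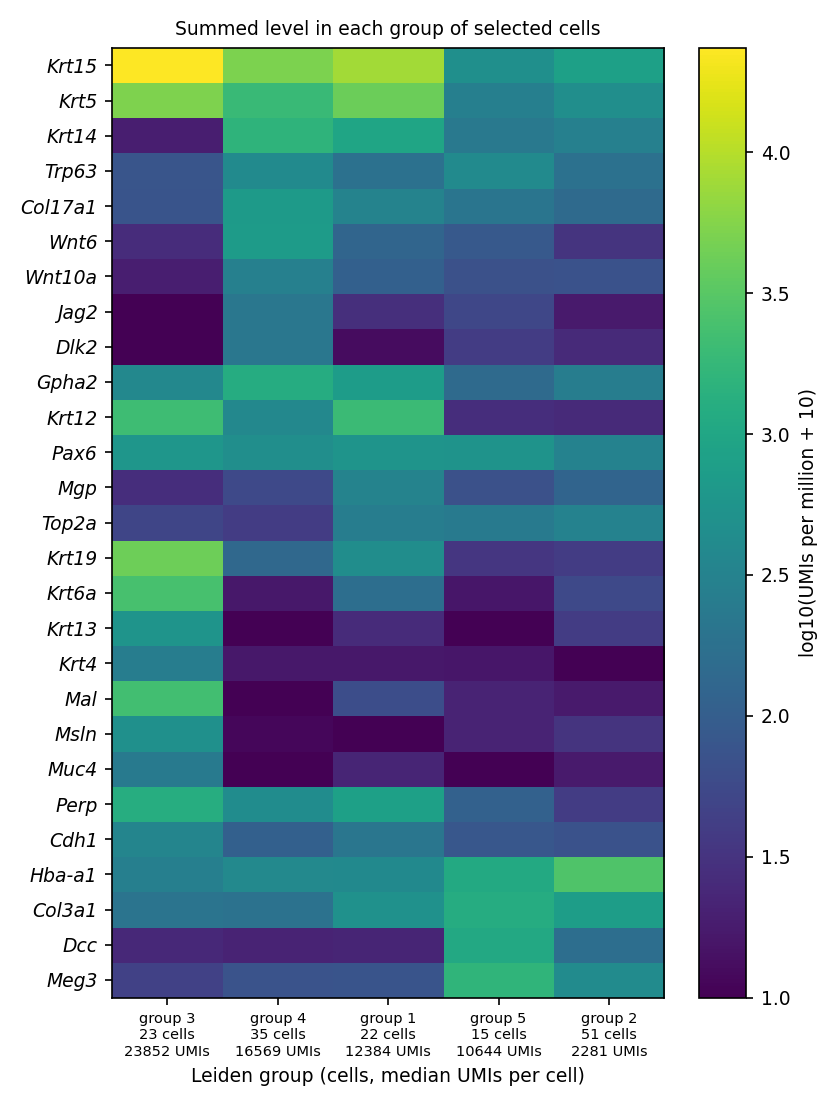
Colour gives log10 of CPM plus 10 for each gene (rows) in each Leiden group (columns, with the number of cells and the median UMIs per cell), both libraries summed. Krt14, Col17a1, Wnt6, Jag2 and Dlk2 are high in group 4, Krt19, Krt6a, Mal and Msln in group 3, and Hba-a1, Col3a1, Dcc and Meg3 in groups 5 and 2.

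Between genotypes, 3541 genes had at least 100 UMIs over the surface cells of both libraries. Of these 15 (0.424%) were at least 2-fold higher in humdG/humdG and 86 (2.43%) at least 2-fold lower, with a median log2 ratio of -0.04 over all 3541. The surface cells of humWT/humWT held the larger part of the UMIs (1371920 against 638474), so a gene could reach the limit through that library alone, and the limit favoured genes lower in humdG/humdG. The same sign was seen in all other cells for 13 of the 15 and 60 of the 86. In the cells from 0.5%, without a new limit of 100 UMIs there, 8 of the 15 and 50 of the 86 also passed 2-fold. With that limit applied to those cells alone, 2712 genes were measured, of which 8 (0.295%) were higher and 27 (0.996%) lower. Of 176 epithelial genes in 17 lists other than the rule's, 103 were measured, of which 1 (Krt13) was past 2-fold higher and 3 (Krt4, Col4a6 and Mki67) lower, with a median log2 ratio of 0.04. Without the deepest cell of each library none of the 103 was past 2-fold higher and 5 were lower (Krt4, Krt13, Dsg3, Klf4 and Wnt7b), with Col4a6 (105.0 and 53.0 CPM, log2 -0.99) and Mki67 just within 2-fold. The shares over all genes above, 0.424% and 2.43%, include the deepest cells, and are no background for the counts made without them.

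Mesenchyme and muscle genes were lower in humdG/humdG among the genes of other cell types. Of the 71 genes in 12 such lists, 14 had enough UMIs, of which none was past 2-fold higher and 7 were lower, with a median log2 ratio of -0.80. All 5 measured mesenchyme genes were among them, Col1a1 with 741 and 287 CPM, Col3a1 with 440 and 174 and decorin (Dcn) with 164 and 53.3. Their median log2 ratio was -1.59, and in all other cells it was -1.15. The other 7 measured genes lay within 2-fold, although the globin Hbb-bt was past 2-fold higher without the deepest cells. The 4 measured globins had a median log2 ratio of 0.22 in all selected cells and -0.63 in the cells from 0.5%. In the latter, 1 humWT/humWT cell held 127 of the 343 Hba-a1 UMIs of that library. Red blood cells held 2832 and 1100 CPM of the whole mesenchyme list. The muscle genes Acta1 (72.9 and 6.26 CPM, or 100 and 4 UMIs) and Ttn were also past 2-fold lower, Acta1 reaching the limit through humWT/humWT. The part of this RNA in the differences of single genes was not tested.

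The lowest ratio was that of Cyp2f2, a cytochrome P450, with 114 CPM in humWT/humWT and 6.26 CPM in humdG/humdG, and 94.3% of the former lay in 1 cell. Lgals1, a galectin of mesenchyme and other cells, was spread more widely, with 209 CPM in 64 of 92 cells and 25.1 CPM in 11 of 54 (log2 -3.06, -3.89 to -2.34). Its ratio in the cells from 0.5% was -3.32 and in all other cells -0.96. Red blood cells held 208 and 118 CPM of Lgals1, with a UMI in 54.0% and 29.6% of them, so the surface cells were at that level in humWT/humWT and below it in humdG/humdG. Among the 10 lowest were also Mgp, Foxp2, Ebf1 and Zfp521, all higher in the cells outside the surface epithelium than in it, and all reaching the limit of 100 UMIs mainly through humWT/humWT. For Mgp 58.3% of the humWT/humWT UMIs lay in 1 cell, and its ratio turned to 0.36 in the cells where Xist but no Y-linked gene was detected.

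Among the highest ratios Cdk8, a kinase of the Mediator complex, was at 1391 CPM in humWT/humWT and 4572 in humdG/humdG, a log2 ratio of 1.72, and it was at 2863 and 8087 CPM in all other cells. Its ratio in red blood cells was 1.07. Fabp5, the epidermal fatty acid binding protein, was at 592 and 1685 CPM, with 57.4% of the latter in 1 cell. Smoc2, a matrix protein that binds calcium, was at 33.5 CPM (24.5 to 44.7) and 116 CPM (91.0 to 146), in 20 and 9 cells and with 43.2% of the latter in 1 cell, and its ratio of 1.79 contrasted with -0.94 in all other cells, but it turned to -1.90 in the cells where Y-linked genes but not Xist were detected. Car12, a carbonic anhydrase of the cell surface, was at 61.2 (48.8 to 75.8) and 135 (108 to 166), a ratio of 1.14 against -1.09. Ndufa4l2, a mitochondrial protein induced by hypoxia, was at 278 and 631 CPM, a ratio of 1.18 against 0.73.

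Genes whose ratio differed most from that of all other cells were named by the same measure in both directions. Plac8 was at 101 and 194 CPM (log2 0.94 against -1.23), with 59.7% and 48.4% of it in 1 cell, and Igfbp5, an insulin-like growth factor binding protein, at 294 and 429 (0.54 against -1.07). Pdgfa, a growth factor that surface epithelia send to the mesenchyme, was at 113 and 152 CPM (0.43 against -1.03). In the opposite direction the chloride channel Ano1 was at 126 and 53.3 CPM (-1.24 against 1.16), with 56.6% of the former in 1 cell, and its ratio turned to 1.82 when cells were thinned to 2000 UMIs. Dcc was at 138 and 50.1 CPM (-1.47 against 0.71), with 68.9% of the former in 1 cell, and its ratio in the cells from 0.5% was 0.65. The first 3 kept their direction in the cells from 0.5%, with ratios of 0.77, 0.63 and 0.44. Igfbp5 and Pdgfa turned to -0.51 and -0.79 in the cells where Y-linked genes but not Xist were detected, and Plac8 to -3.13 in the reverse.

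**Figure D5:**
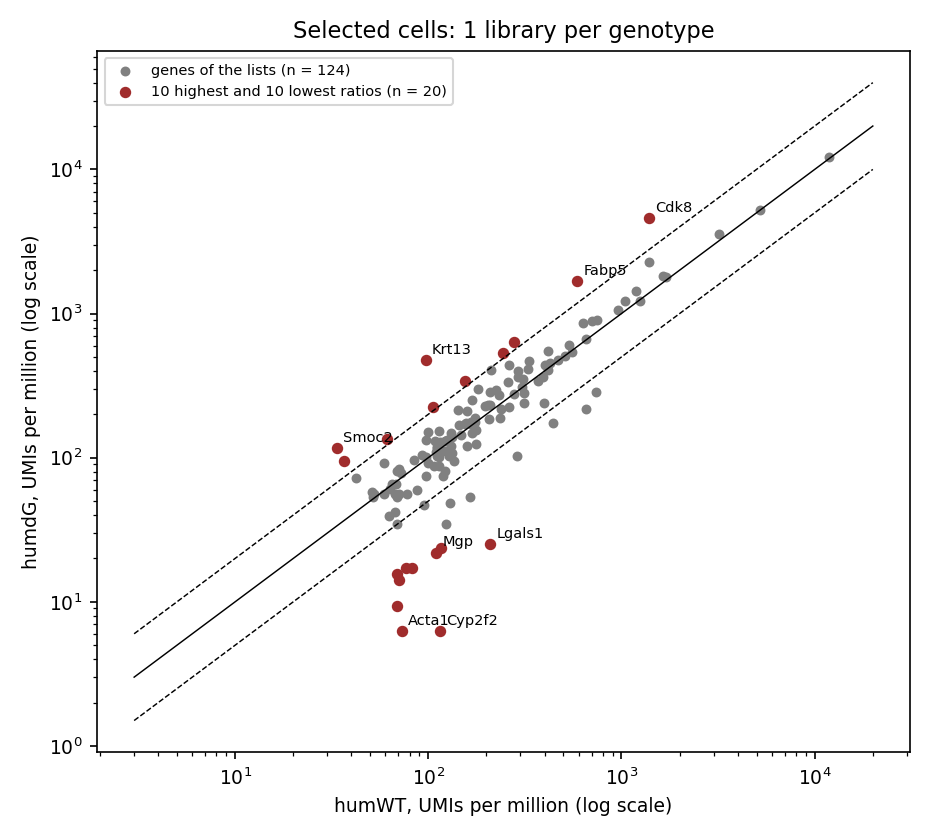
Each point is 1 gene, placed by its CPM in the selected cells of humWT/humWT (x axis) and humdG/humdG (y axis), both on log scales, in grey for the genes of the lists and in red for the 10 highest and 10 lowest ratios, with a solid line at equal levels and dashed lines at 2-fold. Most list genes lie between the dashed lines, while Krt13, Smoc2, Fabp5 and Cdk8 lie above and Lgals1, Mgp, Acta1 and Cyp2f2 below.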

How the data were processed

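Single-cell suspensions of pooled E17.5 eyes were profiled with 10x 3′ chemistry in 1 library per genotype. The deposited files hold UMI counts per gene and barcode for 32285 features, which the authors made with Cell Ranger 7.1.0 on mm10 and analysed in Seurat 4.1.1, per the submitters' notes. Whether intronic reads were counted is not given in the sources used here. No cell annotation was used, so the cells were chosen again by markers from the counts, after the gene and mitochondrial limits.

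Counts were summed over the selected cells of each library, divided by their summed UMIs and given as counts per 1000000 UMIs (CPM) with exact Poisson intervals. Shares have Clopper-Pearson intervals, and ratios of humdG/humdG to humWT/humWT have exact conditional binomial intervals, all at 95%. With 1 library per genotype, no test was made, no p was computed and no SE was given. Ratios were counted past 2-fold for genes that reached 100 UMIs in the libraries together. A gene with no UMI was given the limit that 3 counts allow. Red blood cells were barcodes with globins from 10% of UMIs, and were used as a guide to free RNA, of which they are no pure measure. Groups came from Leiden clustering (scanpy 1.11.5, 1000 variable genes, 15 components, 15 neighbours, resolution 0.5). Python 3.11.15, numpy 2.4.6 and scipy 1.17.1 were used. The ratios of summed UMIs and their intervals were checked on simulated counts, and the other steps were not.

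Named genes were all genes of 31 lists (257 genes), from which the text gives examples, the 30 genes highest over all other cells, the 10 highest and 10 lowest ratios, and the 10 ratios farthest from those of all other cells in each direction. The members and the lists were chosen with earlier results of these data known. Scrublet called 1 of 17017 and 0 of 19129 cells as doublets and so did not work. The 5% of cells with the highest score were left out as an alternative, which removed 1 and 4 selected cells. The other alternatives changed the limits, the marker rule, the weight of cells, the scaling, the sex of cells, the depth and the filter on low counts. A few genes of the lists are not reported here.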

Additional observations from a re-analysis of the deposited data

Results flagged for a closer look

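Barcodes outside the gene and mitochondrial limits, which enter no comparison, were looked at with the same marker rule. In humWT/humWT 10 of the 404 barcodes left out (2.48%) met it, all of them removed by the mitochondrial limit, with a median of 5160 UMIs and 19.9% mitochondrial UMIs. Perp was detected in 8 of the 10, and 3 had at least 0.5% of their UMIs in the 6 genes. In humdG/humdG 6 of 436 (1.38%) met it, with a median of 6647 UMIs and 16.9% mitochondrial UMIs, Perp in all 6, and 4 from 0.5%. These shares were higher than the 0.541% and 0.282% among kept cells. They were noted because this signal lies in barcodes that the results do not use, and its cause was not tested.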

How the results depend on the processing

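The cell counts moved with the marker rule, to 56 and 29 cells at a summed share from 0.2% and to 43 and 24 from 0.5%. With at least 4 of 6 markers they were 57 and 22 (share ratio 0.343). They also moved with depth, to 60 and 28 with every cell thinned to 2000 UMIs, a setting chosen after seeing the data. The share stayed lower in humdG/humdG under each setting tried, with a ratio of 0.461 to 0.653 under the others. The counts of genes past 2-fold (15 higher, 86 lower) depended strongly on the setting. Genes higher in humdG/humdG numbered 8 in the cells from 0.5%, 24 in cells with Xist and no Y-linked UMI, 71 in the reverse, 84 when each cell weighed alike, 4 when thinned, 198 from 20 UMIs and 1290 with no filter beyond 1 UMI in each library. Genes lower numbered 134 at a summed share from 0.05%, 28 from 0.2%, 27 from 0.5%, 53 without cells that met another set's rule, 51 in cells with Xist alone, 251 when each cell weighed alike, 7 when thinned, 752 from 20 UMIs and 1469 with no filter. Thinning left out 7 and 12 cells and left 228 genes. Of the 20 extreme ratios, 11 stayed past 2-fold in cells with Xist alone and 13 when thinned. The cause was not tested.

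Log2 ratios turned direction for Rasgef1b (0.21 from 0.05%, 0.34 with cells weighed alike, 0.28 thinned), Dcc (0.43 from 0.2%, 0.65 from 0.5%, 2.41 with Xist alone, 0.085 with cells weighed alike), Hist1h3e (-0.025 with 4 markers), Hist1h4d (-0.30 with 4 markers, -0.18 from 0.5%), Krt13 (-1.12 without the deepest cells), Mgp (0.36 with Xist alone), Fgfbp1 (-0.23 with Xist alone, -0.82 thinned), Smoc2 (-1.90 with Y-linked UMIs alone) and Ano1 (1.82 thinned). Of 540 ratios of 32 genes over 17 settings, 418 stayed within their counting interval. These 16 turned among the genes reported past 2-fold, and 13 more turned among genes within 2-fold (Nnat, Irx3, Mt2, Plac8, Igfbp5, Pdgfa and Piezo2), such as Nnat to 0.46 with cells weighed alike. The other 93 moved further with the same sign. Leaving out the deepest cell of each library moved the log2 ratio of Krt12 from -0.03 to -0.65 and that of Perp from 0.34 to -0.03. The 149 genes at least 8-fold higher became 119 to 152, and clustering at resolutions 0.3 and 1.0 gave 4 and 6 groups. No paired analysis was possible because each genotype has 1 library, and no replicate could be left out.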
